A study of Mus musculus with 6 samples.

Results

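Interferon-stimulated genes are the antiviral and signalling genes that cells switch on when an interferon binds its receptor, and 38 of them were followed here in early lymphoid progenitors of the bone marrow. The genes form a list given by name, and it was drawn up with earlier results of these data known. Each was represented by the probe set that carries only its symbol, and by the one with the highest mean over all 6 arrays where a gene had several. Of the 38 genes, 34 had such a probe set, out of 22180 genes with one in all. The remaining 4, Oas1a, Ifi44, Dtx3l and Gbp2, have no expression value here. Of the 34, Oasl2, Mx1 and Rsad2 fell among the lowest 40% of genes by mean log2 value (under 4.84) and were described without a test, which left 31 members among 13308 genes tested.

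The tested animals were OcnCre+;iDTR+/- mutant mice, in which osteocalcin-driven Cre makes osteocalcin-expressing bone cells carry the diphtheria toxin receptor. They were set against OcnCre-;iDTR+/- control mice, which carry the same receptor allele without Cre. All animals, controls included, received toxin every day for 4 weeks, and Ly6D- common lymphoid progenitors (CLPs) were sorted on the following day from adults 6 to 8 weeks old. The sort took cells low for lineage markers and positive for cKit, Sca and CD127, without Thy1.2 or Ly6D, and RNA of 3 mutant and 3 control samples was hybridised, 1 array per sample. The toxin receptor is aimed at bone cells, so the comparison asks how progenitors differ after osteocalcin-expressing cells are lost. Nothing in the sample descriptions tells single animals from pools, so the spread behind each p-value is that between samples and may be technical in part. The samples of a group were not all repeats of 1 RNA. The Y-linked gene Eif2s3y was at 7.74, 7.31 and 4.77 in mutant replicates 1, 2 and 3, and at 4.88, 7.82 and 7.85 in control replicates 1, 2 and 3. One label field names the tissue as stromal cells, while the cell type field names the sorted progenitors.

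Type I interferons signal through the receptor genes Ifnar1 and Ifnar2 and the kinases Jak1 and Tyk2. These activate Stat2, which acts with Irf9 in a complex that binds the interferon-stimulated response element (ISRE) near many interferon-stimulated genes. Type II interferon acts on another element, the gamma-activated site (GAS), and induces Irf1 and many guanylate-binding proteins. In blood-forming cells the programme is known for restraining viruses, for a low tonic level in the absence of infection, and for pushing resting stem cells into division.

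The response element itself can be read in the promoters of part of the members, and the windows below are shown because the ISRE lies near many interferon-stimulated genes. RefSeq windows of 300 bases (250 before to 50 after a start site, build GRCm38.p6) were found for 27 of the 38 genes. The ISRE core, written as GAAA, any 2 bases and GAAA again, was searched on both strands and occurred in a window of 11 of these 27 genes (40.7%), against 3.99% of all 27025 genes with a window. The 11 genes were Gbp2, Gbp3, Ifih1, Ifit1, Ifit3, Isg15, Oas1a, Oas3, Rsad2, Stat2 and Trim30a. The palindromic GAS core (TTC, any 3 bases, GAA) occurred in 5 of the 27 genes (Ifi35, Ifit2, Irf1, Isg20 and Oas1a; 18.5%), against 9.55% of all genes. These are matches of letters, not measured binding sites. The 5 windows below are those of the members with an ISRE match and the widest range over the 6 arrays, each written 5′ to 3′ on the strand of the gene with the ISRE letters in capitals. Ifit3 lies at chr19:34583279-34583578 (plus strand), Stat2 at chr10:128270248-128270547 (plus), Trim30a at chr7:104465144-104465443 (minus), Isg15 at chr4:156200769-156201068 (minus) and Ifih1 at chr2:62646206-62646505 (minus).
Ifit3: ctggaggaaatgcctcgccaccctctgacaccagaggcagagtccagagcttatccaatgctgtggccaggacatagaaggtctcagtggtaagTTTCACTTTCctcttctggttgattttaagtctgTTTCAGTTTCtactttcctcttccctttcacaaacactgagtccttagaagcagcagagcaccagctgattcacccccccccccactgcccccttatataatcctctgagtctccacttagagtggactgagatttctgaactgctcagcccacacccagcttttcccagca
Stat2: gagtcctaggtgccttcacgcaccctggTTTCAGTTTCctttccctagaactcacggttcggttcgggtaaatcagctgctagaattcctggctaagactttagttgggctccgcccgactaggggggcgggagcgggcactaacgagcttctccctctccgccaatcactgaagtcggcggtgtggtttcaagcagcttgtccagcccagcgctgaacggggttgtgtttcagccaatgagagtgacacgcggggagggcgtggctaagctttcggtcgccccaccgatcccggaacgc
Trim30a: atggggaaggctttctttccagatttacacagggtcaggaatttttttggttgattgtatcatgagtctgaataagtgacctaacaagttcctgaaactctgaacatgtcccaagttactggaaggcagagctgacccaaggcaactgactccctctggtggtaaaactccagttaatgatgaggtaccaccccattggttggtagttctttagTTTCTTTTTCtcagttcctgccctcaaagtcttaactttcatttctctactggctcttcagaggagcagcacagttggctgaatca
Isg15: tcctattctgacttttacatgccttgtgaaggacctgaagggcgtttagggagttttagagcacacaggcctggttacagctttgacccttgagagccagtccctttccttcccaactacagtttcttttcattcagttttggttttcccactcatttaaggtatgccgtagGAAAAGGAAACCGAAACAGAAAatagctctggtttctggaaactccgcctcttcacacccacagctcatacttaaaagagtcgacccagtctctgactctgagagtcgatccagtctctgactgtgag
Ifih1: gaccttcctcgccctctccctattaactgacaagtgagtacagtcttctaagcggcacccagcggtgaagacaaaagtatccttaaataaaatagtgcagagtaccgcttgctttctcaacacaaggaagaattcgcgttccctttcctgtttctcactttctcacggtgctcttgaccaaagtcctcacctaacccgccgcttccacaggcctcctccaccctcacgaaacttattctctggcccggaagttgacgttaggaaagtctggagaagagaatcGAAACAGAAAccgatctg
The Ifit3 window held 2 matches, the first beginning at -156 relative to the start, and the Isg15 window held 3 overlapping matches in 1 run, beginning at -78. The Stat2 match began at -222, the Trim30a match at -36 and the Ifih1 match at 32, downstream of the start. Among tested members with a window, the 8 with an ISRE match had a median log2 difference (mutant minus control) of 0.08 and the 13 without a match had one of 0.03.

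The interferon-stimulated genes did not differ between mutant and control progenitors past the test, in either direction. Mutant means were higher for 17 of the 31 tested members and lower for 14, and the median difference over the list was 0.04 on the log2 scale (14 of 31 is 45.2%, against 57.5% of all genes tested, whose median was −0.04). In limma 0 of the 31 passed an adjusted p of 0.05, where 0% of all 13308 genes passed, and 1 member had an unadjusted p under 0.05 (3.23% of members, against 8.03% of all genes). In 2 tested members, Cmpk2 and Usp18, all 3 mutant values lay below all 3 control values, and in 0 members above them. That is 6.45% of members, against 15.4% of all genes tested (9.99% lower and 5.4% higher). The direction of the list was not the same under every scaling. With arrays centred on their medians 19 of the 31 members were lower and the median turned to −0.02, while the median of all tested genes moved to −0.11. Repeated quantile normalization and cyclic loess kept the direction, each with 12 members lower and medians of 0.042 and 0.047. The medians of all tested genes were then 0.0011 and 0.0008.

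The size of change that these arrays leave room for can be read from the intervals. The 95% interval of the difference held 0 for 30 of the 31 members, the exception being Lgals3bp, and 17 members differed by less than their own standard error. For 29 of the 31 the whole interval lay within 1 of 0 on the log2 scale, that is, within a doubling or its inverse. Over all members the intervals ran from −1.01, the lower end of Ifi27, to 1.12, the upper end of Lgals3bp. The median absolute log2 difference was 0.13 among members and 0.15 among all genes tested, and 5 members (16.1%) differed by more than 0.3, against 19.0% of all genes.

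**Figure D1:**
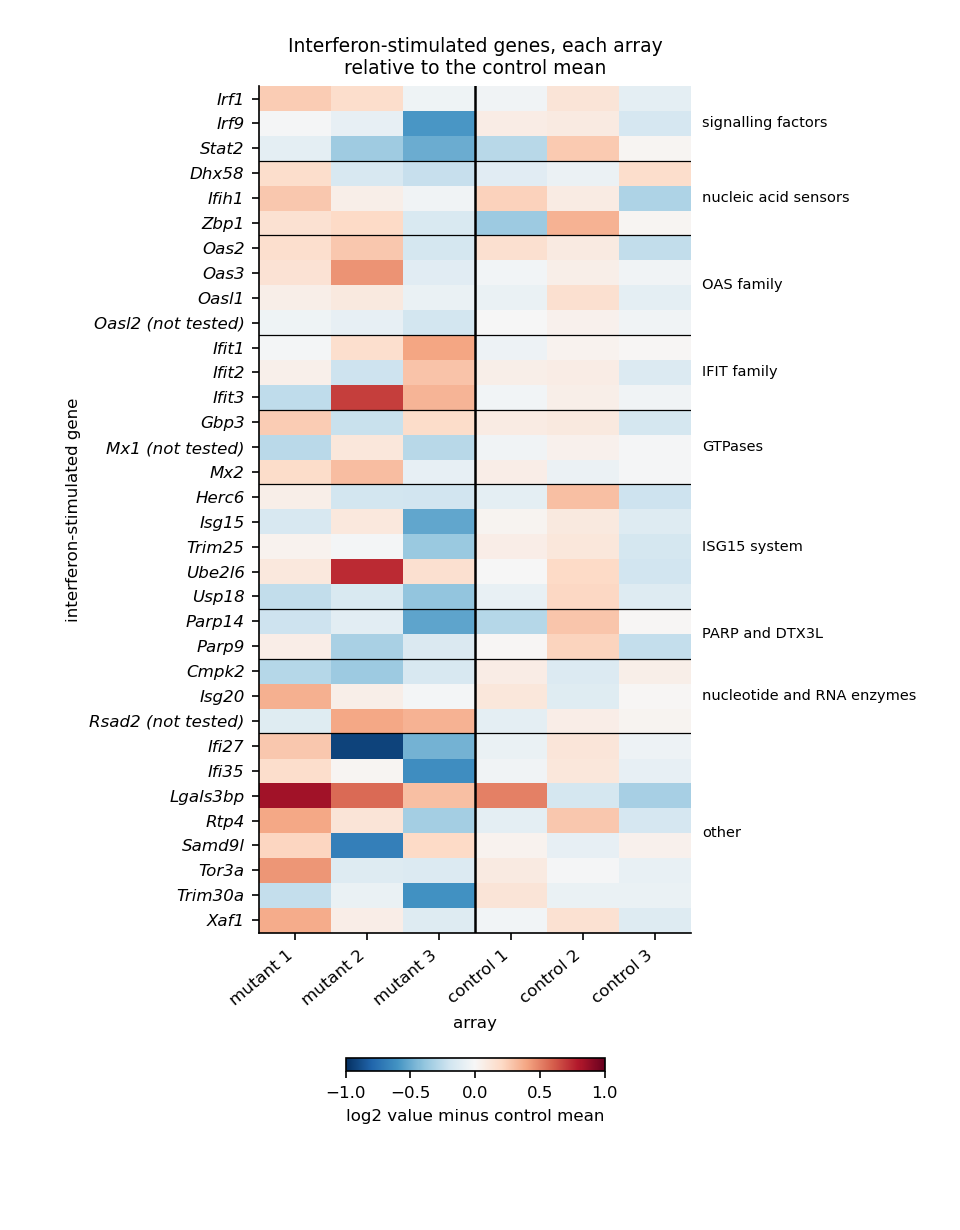
Log2 deviation from the control mean of the 34 interferon-stimulated genes with a probe set (rows, grouped by role) on the 3 mutant and 3 control arrays (columns); red is above and blue below the control mean. No row separates the groups by much: the deviations of tested members ran from −0.93 (Ifi27 on mutant replicate 2) to 0.84 (Lgals3bp on mutant replicate 1), and the column of mutant replicate 3 is mostly blue outside the IFIT family.

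Of the transcription factors that carry the signal, 2 had a lower and 1 a higher mutant mean, and none passed. Stat2, the partner specific to type I signalling, was at 6.20, 5.94 and 5.80 in mutant replicates 1, 2 and 3, against 6.01, 6.55 and 6.31 in control replicates 1, 2 and 3. Control replicate 1 lay below mutant replicate 1, so the groups overlapped. The difference was −0.31 ± 0.17 (SE; unadjusted p = 0.106, adjusted p = 0.596 in limma). Irf9, the DNA-binding partner of Stat2, stood at 6.41, 6.34 and 5.84 in the mutants, against 6.50, 6.51 and 6.25 in the controls, with mutant replicate 3 alone below every control (−0.23 ± 0.18, SE). Irf1, which type II interferon induces most strongly, was at 6.89 ± 0.16 in mutants and 6.76 ± 0.12 in controls (SD, n = 3 each), a difference of 0.13 ± 0.13 (SE).

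Sensors of viral nucleic acid showed no difference larger than its error. Ifih1, which encodes the long double-stranded RNA sensor MDA5, was at 5.92, 5.71 and 5.62 in the mutants, against 5.88, 5.73 and 5.35 in the controls (0.10 ± 0.17, SE). The values interleaved, and the lowest came from control replicate 3. Dhx58, which encodes the regulatory relative LGP2, differed by −0.07 ± 0.15, and Zbp1, a sensor of Z-form nucleic acid that can start necroptosis, by 0.06 ± 0.20 (SE). Zbp1 spread more among controls than among mutants: it was at 6.19 ± 0.19 in mutants and at 6.12 ± 0.36 in controls, from 5.76 in control replicate 1 to 6.47 in control replicate 2.

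The oligoadenylate synthetase genes, whose products make the second messenger that activates RNase L, were also level. Oas3 was at 5.57, 5.87 and 5.31 in the mutants, against 5.40, 5.48 and 5.39 in the controls. Mutant replicate 2 lay above and mutant replicate 3 below all controls, and the difference was 0.16 ± 0.16 (SE). Oas2 differed by 0.09 ± 0.17, and Oasl1, a family member without synthetase activity that limits Irf7 translation in mice, by 0.03 ± 0.12 with values from 5.45 to 5.71 over all arrays. Oasl2 was under the limit for testing, at 4.75, 4.71 and 4.61 in the mutants and 4.79, 4.84 and 4.76 in the controls. Its groups did not overlap, but the means differed by -0.10 at a level under the limit for testing.

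The IFIT genes, whose products bind viral RNA that lacks the cap methylation of the host, were the only role group of 3 or more tested members besides the synthetases in which every tested mean was higher in mutants. Ifit1 was at 5.94, 6.12 and 6.35 in the mutants, against 5.91, 5.99 and 5.97 in the controls. Mutant replicates 2 and 3 lay above every control, and the difference was 0.18 ± 0.13 (SE; adjusted p = 0.635 in limma). Ifit3 was at 7.19, 8.14 and 7.78 in the mutants and at 7.42, 7.51 and 7.41 in the controls. The mutants spanned 0.95 and lay on both sides of the controls, which spanned 0.10, so the difference of 0.26 ± 0.22 (SE) rested on mutant replicates 2 and 3. Transcripts of the near-identical gene Ifit3b can bind its probes too, so the value of Ifit3 is uncertain as to its source. Ifit2 differed by 0.04 ± 0.15 and was highest on mutant replicate 3, at 5.84.

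The interferon-induced GTPases gave little signal. Mx2 was at 5.17, 5.29 and 4.91 in the mutants, against 5.06, 4.93 and 4.98 in the controls, a difference of 0.13 ± 0.13 (SE). Gbp3, a guanylate-binding protein gene of vacuole defence, differed by 0.07 ± 0.16. Mx1, the influenza restriction gene, fell under the limit for testing, at 3.67, 4.06 and 3.67 in the mutants and 3.91, 3.99 and 3.93 in the controls. Mutant replicate 2 was the highest of the 6, and the other mutants lay below every control.

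In the ISG15 system, which attaches a ubiquitin-like protein to other proteins, members moved both ways. Usp18, the protease that removes ISG15 and also blocks the type I receptor, was at 6.16, 6.25 and 6.01 in the mutants, against 6.33, 6.61 and 6.27 in the controls. Every mutant value lay below every control value, but mutant replicate 2 and control replicate 3 were nearly level, and the difference of −0.26 ± 0.14 (SE) did not pass (unadjusted p = 0.0911, adjusted p = 0.594 in limma). Ube2l6, the conjugating enzyme, leaned the other way, at 6.00, 6.64 and 6.05 in the mutants and 5.89, 6.09 and 5.70 in the controls. Control replicate 2 lay above mutant replicates 1 and 3, and mutant replicate 2 set the difference of 0.34 ± 0.20 (SE). The modifier gene Isg15 itself was low, at 4.97, 5.24 and 4.61 in the mutants and 5.16, 5.23 and 5.004 in the controls (−0.19 ± 0.17, SE). At a 6-array mean of 5.03 it was close to the limit for testing, and the mutants held both its highest and its lowest value. The ligase genes Herc6, which conjugates ISG15 in mice, and Trim25, which acts on the RNA sensor RIG-I, differed by −0.10 ± 0.16 and −0.12 ± 0.15. Trim25 was at 8.40, 8.34 and 7.99 in the mutants and at 8.43, 8.47 and 8.18 in the controls, lowest again on mutant replicate 3.

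The ADP-ribosyltransferase genes were lower without passing. Parp14 was at 6.76, 6.87 and 6.44 in the mutants, against 6.69, 7.25 and 6.99 in the controls (−0.28 ± 0.18, SE). Control replicate 1 fell within the mutants. Parp9, whose product works with the ligase DTX3L in DNA repair and antiviral signalling, differed by −0.13 ± 0.16.

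Among enzymes that act on nucleotides and RNA, Cmpk2 was the member with the clearest separation of the groups. This gene of a mitochondrial nucleotide kinase was at 6.37, 6.29 and 6.50 in the mutants, against 6.73, 6.53 and 6.72 in the controls. All mutants lay below all controls, mutant replicate 3 and control replicate 2 being nearly level. The difference was −0.27 ± 0.12 (SE), with a 95% interval from −0.55 to 0.01, and it did not pass (unadjusted p = 0.0554, adjusted p = 0.594 in limma). Rsad2, which neighbours Cmpk2 in the genome and encodes the antiviral protein viperin, was under the limit for testing. It was at 4.07, 4.58 and 4.54 in the mutants and at 4.10, 4.26 and 4.22 in the controls, with the mutants on both sides of the controls. Isg20, an exonuclease gene, differed by 0.13 ± 0.14.

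**Figure D2:**
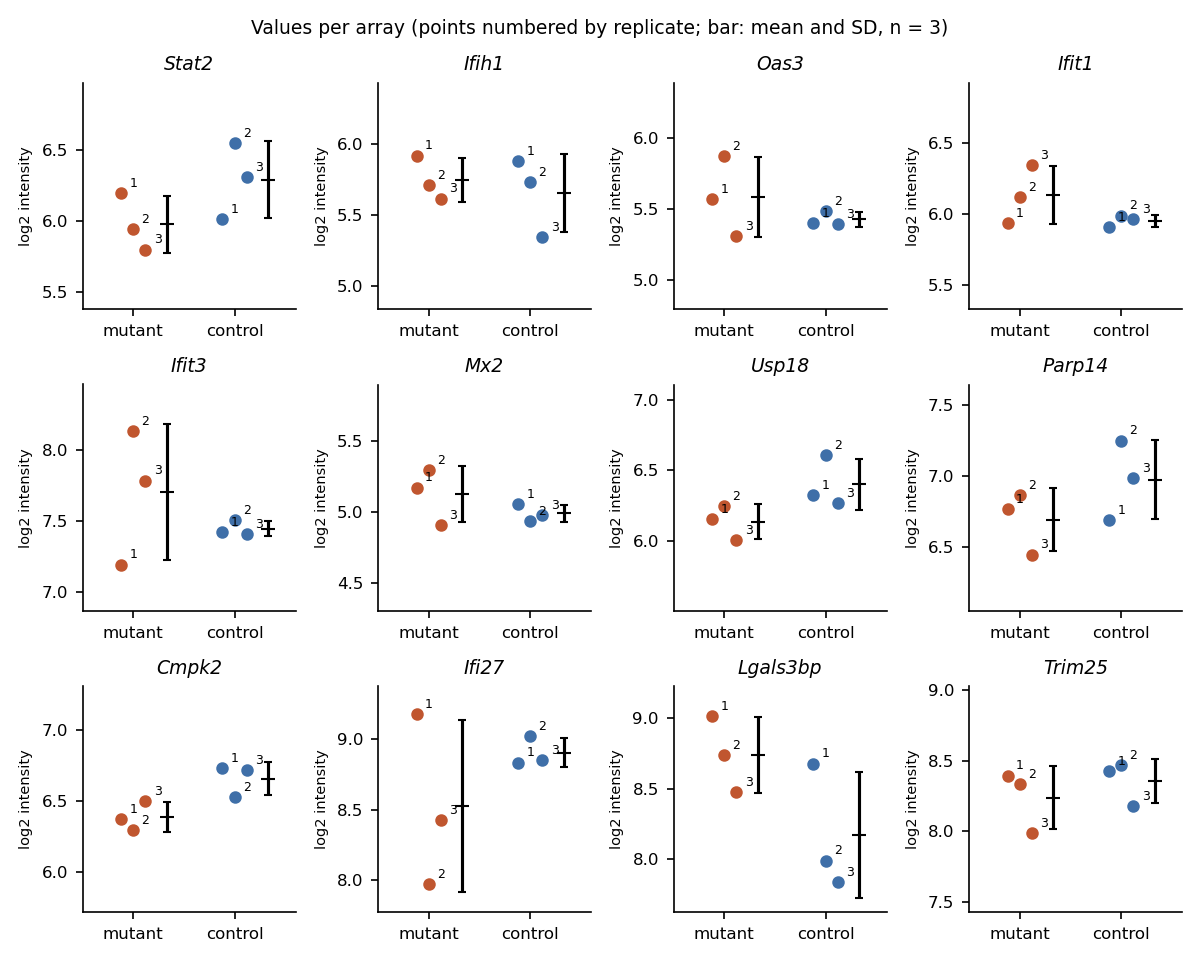
Log2 intensity on each array for 12 members (1 panel each, every vertical axis spanning the same log2 width), with points numbered by replicate, and the mean and SD of 3 arrays beside them. Usp18 and Cmpk2 are the panels in which the groups do not overlap, and the mutants of Ifit3 and Ifi27 spread far more widely than the controls.

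The remaining members held the most variable genes of the list. Lgals3bp, which encodes a secreted galectin-binding glycoprotein, was at 9.01, 8.74 and 8.47 in the mutants, against 8.68, 7.99 and 7.84 in the controls. Mutant replicate 3 lay below control replicate 1, so the groups overlapped. Its difference of 0.57 ± 0.24 (SE) was the highest of the tested members and the only one with a raw p under 0.05 (unadjusted p = 0.0429, adjusted p = 0.594 in limma). A second probe set of the gene gave a smaller difference of 0.29, with means of 6.63 in mutants and 6.35 in controls. Ifi27, a gene of a small mitochondrial membrane protein, was at 9.17, 7.97 and 8.43 in the mutants and at 8.83, 9.02 and 8.85 in the controls. The mutants held both the highest and the lowest value of the 6, and the difference was −0.38 ± 0.27 (SE). Without mutant replicate 1 it was −0.70 (adjusted p = 0.125 in limma), the lowest adjusted p of any member over the alternatives run. Without mutant replicate 2 it was −0.10, and with cyclic loess −0.16, so its size hung on these arrays and on the scaling.

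Trim30a, a mouse gene that restrains innate signalling, was at 6.53, 6.70 and 6.16 in the mutants, against 6.90, 6.70 and 6.70 in the controls (−0.30 ± 0.16, SE). Mutant replicate 2 was level with control replicates 2 and 3. Ifi35 differed by −0.14 ± 0.21, and its second probe set gave the same −0.14. Samd9l, a growth-restraining antiviral gene, was at 5.64, 4.74 and 5.62 in the mutants and between 5.34 and 5.47 in the controls. Its difference of −0.09 ± 0.24 turned to 0.21 without mutant replicate 2, the one array far from the rest. Rtp4 (0.06 ± 0.21), Xaf1 (0.10 ± 0.16), a gene that promotes cell death, and Tor3a (0.06 ± 0.17) were highest on mutant replicate 1.

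**Figure D3:**
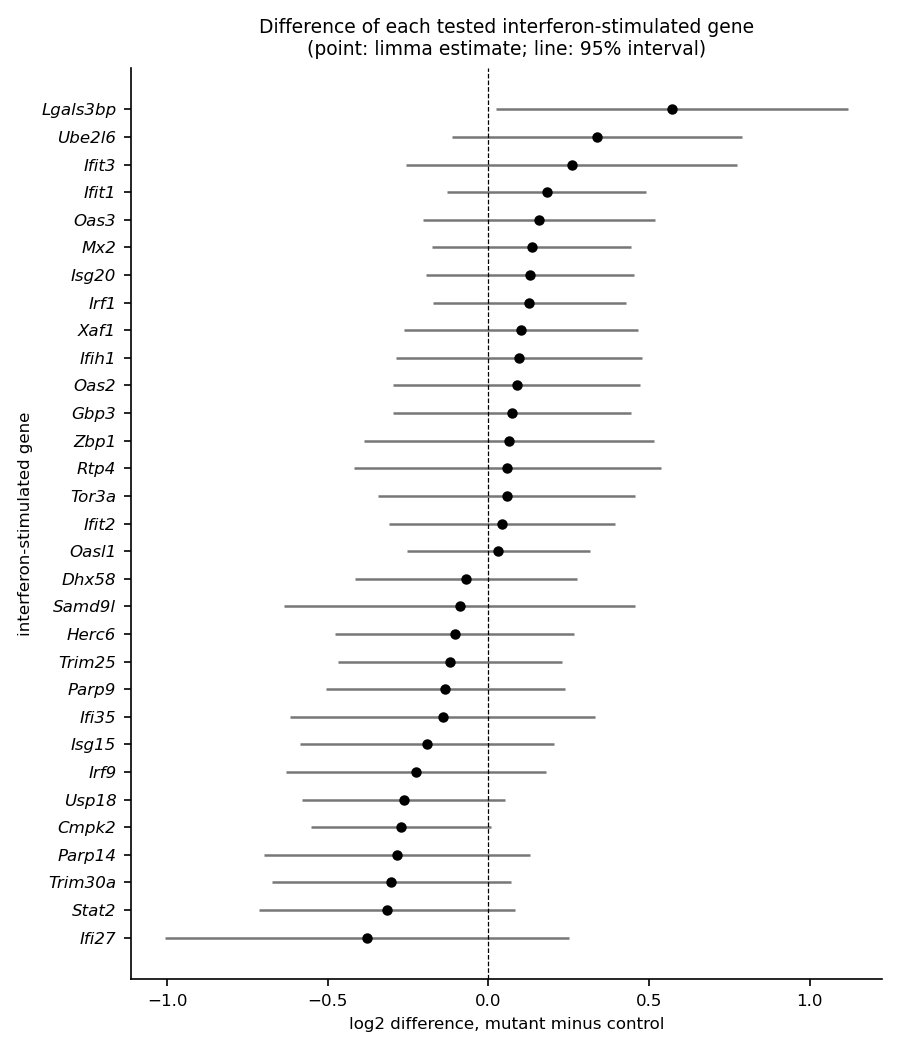
Log2 difference, mutant minus control, of the 31 tested members (points) with limma's 95% interval (lines), ordered from the highest difference at the top. The lines cross 0 for every member except Lgals3bp, and those of Ifi27 and Lgals3bp reach past 1 in size.

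What the members shared was a pattern by array rather than by group. Each member was set against its own control mean, and the median of these log2 deviations was 0.14, 0.02 and −0.14 in mutant replicates 1, 2 and 3, against −0.00, 0.09 and −0.10 in control replicates 1, 2 and 3. The mutants spanned the controls, with means of 0.01 ± 0.14 in mutants and −0.00 ± 0.09 in controls (SD, n = 3 each). Mutant replicate 3 held the lowest value of 14 of the 31 members (45.2%, against 19.1% of all genes tested), and 24 members were below their control mean there. Mutant replicate 2 held the lowest value of only 6 members (19.4%), against 35.9% of all genes, so part of the excess elsewhere mirrors this lower share. Control replicate 3 held the lowest value of 7 members (22.6%, against 9.29% of all genes) and the highest of 0. Mutant replicate 1 held the highest value of 12 members (38.7%, against 19.5%), and control replicate 2 that of 9 (29.0%, against 17.6%). The IFIT genes went against this order: their median on mutant replicate 3 was 0.34, while that of the signalling factors was −0.49 and that of the ISG15 system −0.37. No test was made of these shares, since members can move together on an array.

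**Figure D4:**
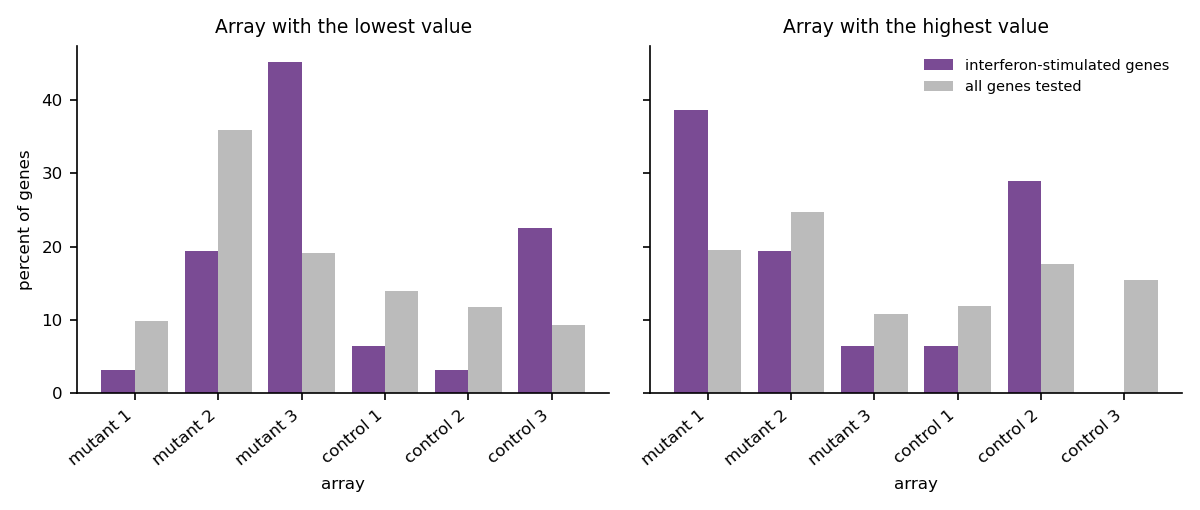
Percent of genes whose lowest (left) or highest (right) value of the 6 was on a given array, for the 31 tested interferon-stimulated genes (purple) and all 13308 genes tested (grey). Mutant replicate 3 stands out on the left at 45.2%, and mutant replicate 1 on the right at 38.7%.

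The arrays themselves differed in ways that touch these values. Pearson correlations across genes, which are not independent, were 0.922 to 0.938 between mutant replicate 2 and any other array, and 0.967 to 0.989 between the rest. The brightest 10% of tested genes had a median of −0.42 there relative to the control mean, and of −0.18 on mutant replicate 3. The Y-linked gene Eif2s3y was at 4.77 in mutant replicate 3 and 4.88 in control replicate 1, and between 7.31 and 7.85 on the other 4 arrays. Xist, also sex-linked, was at 10.72 in mutant replicate 3 and 11.04 in control replicate 1. It was at 8.03 and 5.57 in mutant replicates 1 and 2, and at 8.07 and 6.57 in control replicates 2 and 3. The 4 arrays with high Eif2s3y were thus not alike in Xist. Within those 4 arrays 14 of the 31 members were lower in mutants (median 0.05), and in the single pair with low Eif2s3y 23 were lower (median −0.15). The pair is 1 array against 1 and has no test, and the part of Y-linked status in the pattern of mutant replicate 3 was not tested. The spread was wider among mutants: the median SD of members was 0.23 in mutants and 0.14 in controls, against 0.20 and 0.12 over all genes tested. In a bulk RNA sample fewer cells of a type and less RNA per cell cannot be told apart.

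The other genes of the pathway did not pass either, and 0 genes of the 5 lists below had an adjusted p under 0.05. Among 33 tested further interferon-inducible genes the mutant mean was lower in 25 (75.8%, against 57.5% of all genes), with a median of −0.19. That median was −0.058 with repeated quantile normalization, −0.055 with cyclic loess, −0.077 without mutant replicate 3 and −0.093 without mutant replicate 2. It was −0.25 with arrays centred on their medians, −0.24 without control replicate 3 and −0.22 without mutant replicate 1. The lowest p in this list belonged to Shisa5 (−0.36 ± 0.14, SE; adjusted p = 0.594 in limma), a gene of p53-induced cell death, to Irgm2 (−0.60 ± 0.27), an immunity-related GTPase gene, and to Ly6e (−0.34 ± 0.16), a viral entry modulator. Irgm2 was at 5.80, 4.63 and 5.36 in the mutants and between 5.77 and 6.01 in the controls. The immunoproteasome gene Psmb9, chosen after its values were seen, had the largest difference of the list (−0.62 ± 0.30) and was likewise lowest on mutant replicate 2, at 9.01. Shisa5, lower in mutants, and Znfx1, higher in mutants and named after its values were seen, were the 2 genes of this list without overlap (6.06%, against 15.4% of all genes tested). By array the list's median was 0.05, −0.19 and −0.26 in the mutants, against −0.02, 0.13 and −0.08 in the controls, so it too was lowest on mutant replicate 3.

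Upstream of the response, 8 of 9 tested receptor and kinase genes were lower in mutants by small amounts (median −0.09), a median that was −0.0012 with cyclic loess, −0.022 with repeated quantile normalization and −0.18 without mutant replicate 1. The lowest p-values belonged to Jak2 (−0.26 ± 0.17, SE), Ifnar2 (−0.22 ± 0.17) and the type II receptor gene Ifngr1 (−0.18 ± 0.20), whose groups overlapped, and Jak1 (−0.07 ± 0.11), named after its values were seen, was the 1 gene of the list without overlap (11.1%, against 15.4% of all genes). Of 10 tested genes that lead to interferon production 7 were lower (median −0.07, but −0.21 without mutant replicate 1 and −0.043 without mutant replicate 3). In 3 of the 10 (30%, against 9.99% of all genes tested) the mutants lay below all controls: Mavs, the mitochondrial adaptor of RNA sensing (−0.29 ± 0.13), Tbk1, the kinase that activates Irf3 (−0.33 ± 0.15), and Sting1, the adaptor of DNA sensing (−0.24 ± 0.13). For Tbk1 mutant replicate 1, at 7.771, and control replicate 3, at 7.774, were nearly level. Irf7, the amplifier of interferon production, was at 6.27, 6.04 and 5.41 in the mutants and at 5.94, 6.22 and 5.78 in the controls, again lowest on mutant replicate 3.

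The genes that restrain interferon held the lowest p-values of the pathway. Of 9 tested, 6 had a lower mutant mean (median −0.15), and 2 (22.2%, against 15.4% of all genes) had no overlap, both lower. The median was −0.024 with repeated quantile normalization, −0.0135 with cyclic loess and −0.0165 without mutant replicate 2, and −0.28 without mutant replicate 1. Samhd1, which breaks down nucleotides and whose loss raises interferon in human disease, was at 8.27, 7.39 and 7.64 in the mutants, against 8.27, 8.73 and 8.62 in the controls. Mutant replicate 1 and control replicate 1 were level, and the difference was −0.77 ± 0.24 (SE; unadjusted p = 0.0113, adjusted p = 0.594 in limma). Ptpn6, the phosphatase gene SHP-1, was at 8.34, 8.10 and 7.81 in the mutants and 8.50, 8.76 and 8.61 in the controls, without overlap (−0.54 ± 0.16, SE; adjusted p = 0.594). Irf2, which opposes Irf1 at the same elements, was at 8.26 ± 0.07 in mutants and 8.55 ± 0.18 in controls (SD, n = 3 each), with no overlap either. Its mutant replicate 1, at 8.34, and control replicate 1, at 8.35, were nearly level.

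Of 12 listed interferon genes, 4 were above the limit for testing, 3 with a higher and 1 with a lower mutant mean, and their probes can bind several near-identical family members. Ifna4 was at 7.67, 7.84 and 7.67 in the mutants, against 7.42, 7.48 and 7.41 in the controls, higher on every mutant array (0.29 ± 0.11, SE; unadjusted p = 0.0306, adjusted p = 0.594 in limma). Ifnl2 differed by 0.35 ± 0.21, set by mutant replicate 2 at 8.09, Ifnl3 by 0.03 ± 0.13, and Ifna1, the 1 with a lower mutant mean, by −0.03 ± 0.16. Ifnb1 and Ifng were under the limit, Ifnb1 at 3.05 to 3.65 in the mutants and 3.00 to 3.19 in the controls.

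Markers of other cells that express interferon-stimulated genes strongly were measured beside these values. Of 6 tested plasmacytoid dendritic cell markers 4 were lower in mutants, with medians by array of −0.23, −0.20 and −0.10 in the mutants and −0.02, 0.14 and −0.03 in the controls. Siglech, which defines that cell, was at 6.33, 5.94 and 6.14 in the mutants and 6.09, 6.19 and 5.93 in the controls. Pld4, a nuclease gene of the same list, was at 6.44, 6.22 and 5.82 in the mutants and 6.94, 7.18 and 6.89 in the controls, without overlap (−0.85 ± 0.18, SE; unadjusted p = 0.00145, adjusted p = 0.594 in limma). Spib, a transcription factor gene that B-lineage cells also express, differed by −0.74 ± 0.40, with overlap. The median over the 6 markers was −0.13, but 0.044 with cyclic loess and 0.045 with repeated quantile normalization. It was −0.20 with arrays centred on their medians and −0.19 without mutant replicate 3. Of 15 myeloid markers 8 were lower, with medians of 0.35, −0.25 and −0.10 in the mutants and 0.14, −0.08 and −0.06 in the controls. Control replicate 1 had a myeloid median of 0.14 but a member median of −0.0023. Control replicate 2 had a myeloid median of −0.08 but a member median of 0.09. Mutant replicate 1, high in members, also had a high myeloid median, but the markers were mixed. Elane and Mpo, named after their values were seen, were highest there, at 10.56 and 11.45. Ccr2 (−0.50 ± 0.15, SE), Ctss (−0.81 ± 0.28) and Csf1r (−0.37 ± 0.14) were below every control on all mutant arrays. These 3 were the markers without overlap (20%, against 15.4% of all genes), and none passed. Other marker lists were measured too. All 4 tested mature B markers (median −0.26) and 7 of 9 T and NK markers (median −0.105) had a lower mutant mean. These are 100% and 77.8%, against 57.5% of all genes. All 7 tested erythroid and megakaryocyte markers had a higher one (median 0.21), and none of these genes passed. By array the mature B median was −0.16, −0.14 and −0.54 in the mutants and −0.30, 0.18 and 0.10 in the controls. The part of such cells in the members' values was not tested. All 7 tested genes of the sort and identity list had a lower mutant mean, Kit by only −0.02. The median was −0.21, but −0.074 with cyclic loess and −0.30 without mutant replicate 1. The list mixes genes the sort selected for with Ly6d and Thy1, whose products it excluded. In 3 of the 7, Il7r, Dntt and Rag2, the groups had no overlap (42.9%, against 15.4% of all genes). In all 3 the nearest arrays were nearly level. Mutant replicate 1 and control replicate 1 were at 9.798 and 9.814 for Il7r, and at 8.388 and 8.395 for Rag2. For Dntt mutant replicate 3 and control replicate 3 were both at 10.927. Ly6d, whose product the sort excluded, was at 7.57, 7.30 and 7.001 in the mutants and 7.18, 8.14 and 8.25 in the controls (−0.57 ± 0.29, SE). Il7r, which encodes CD127, was at 9.80, 9.72 and 9.78 in the mutants and 9.81, 10.35 and 10.16 in the controls. Kit was at 7.13 ± 0.17 in mutants and 7.15 ± 0.23 in controls (SD, n = 3 each).

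**Figure D5:**
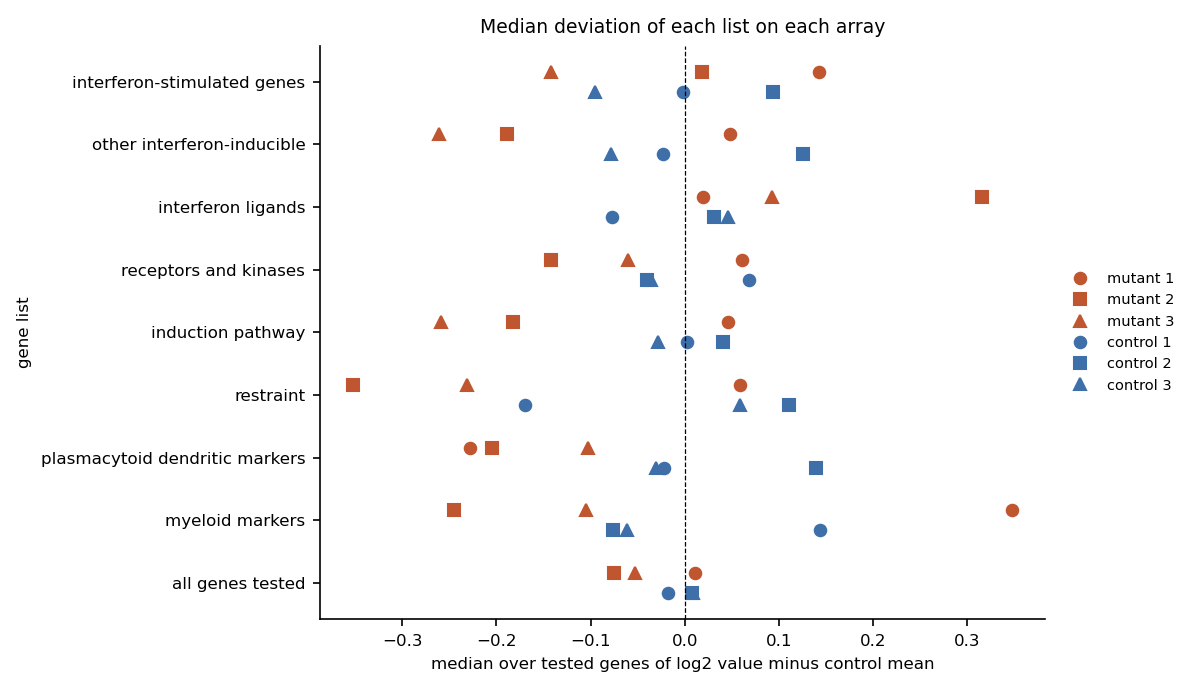
Median over tested genes of the log2 deviation from the control mean (horizontal axis), for each gene list (rows) on each array (red mutant above blue control; circle, square and triangle are replicates 1, 2 and 3). The interferon-stimulated genes run from −0.14 to 0.14 in mutants and from −0.10 to 0.09 in controls. Mutant replicates 2 and 3 lie left of the controls in every other row except the interferon ligands, the row of all genes tested included. In the plasmacytoid dendritic markers mutant replicate 1 does so too.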

How the data were processed

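Gene expression was measured on Affymetrix arrays in 3 mutant and 3 control samples, grouped by the genotype in the source labels, with replicate numbers from the titles. The authors deposited 1 log2 intensity per probe set and array, and RMA is the tool named in the submitters' processing notes. RMA corrects the background, equalises the distributions of the arrays and gives no detection call. The version and annotation were not stated there. Probes were named from a platform annotation table: of 41345 probe sets 23521 had 1 symbol, 1814 had several and 16010 had none. The 34 members with a value matched RefSeq (GRCm38.p6) under the same symbol.

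All 13308 genes above the 40% filter were fitted together with limma 3.58.1 (R 4.3.3), using lmFit and then eBayes; p-values are 2-sided, adjusted by Benjamini-Hochberg over those genes and called at 0.05, after a check of the script on simulated data. SE is the standard error from limma. Lists are described by counts and medians, with no set test. Figures used matplotlib 3.10.9. The precision is limited by 3 arrays per group.

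The members and lists were chosen with earlier results of these data known. All members are named. Values per array are given for members whose groups do not overlap, the 3 with the highest mean, the 3 with the widest range, the lowest p of each role group and, after their values were seen, some others. In each pathway list the lowest p-values are named, and any other gene named there was chosen after its values were seen. Alternatives changed the filter, probe sets, variance prior, scaling, blocks and arrays; the 4 arrays with high Eif2s3y alone were added after seeing the data.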

Additional observations from a re-analysis of the deposited data

How the results depend on the processing

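None of the 31 members passed under any of the 16 alternatives, including the replicate block, which gave 0 calls over all genes. Both groups hold the same replicate numbers, so this block could not change any difference, and the median stayed at 0.04. Deviations from the group means of same-numbered samples correlated at 0.13, 0.20 and -0.13, so the numbers were not treated as pairs. Over all genes the count of calls was 0 to 4 on leaving out 1 array: H1f2, Mir467e, Mir669h and Rpl32 passed without mutant replicate 1 and Stfa2l1 without mutant replicate 2 (named after their values were seen, none of them members). The median difference of the members was -0.087 when the lowest 60% of genes were left out, which removes members, and, on leaving out 1 array, lay between -0.104, when mutant replicate 1 was dropped, and 0.076, when mutant replicate 3 was. The filters, the variance prior and both blocks could not change the difference of a gene, so only the other alternatives could turn a sign. The sign of the difference held under every alternative for 17 members. The other 14 had main differences of at most 0.14 in size; the cause of their changes of sign was not tested. With arrays centred on their medians Ifit2 was at -0.023, Oasl1 at -0.035, Rtp4 at -0.0072, Zbp1 at -0.0010 and Tor3a at -0.0080. With cyclic loess Oasl1 was at -0.0083, Ifi35 at 0.0097, Herc6 at 0.047 and Trim25 at 0.083; with repeated quantile normalization they were at -0.0030, 0.0091, 0.042 and 0.077. In the 4 arrays with high Eif2s3y, a choice made after seeing the data, Ifit2 was at -0.049, Ifi35 at 0.080, Zbp1 at -0.010 and Trim25 at 0.041. On leaving out 1 array the difference ran from -0.078 to 0.17 for Ifit2, -0.019 to 0.11 for Oasl1, -0.035 to 0.22 for Oas2, -0.10 to 0.26 for Rtp4, -0.059 to 0.21 for Ifih1, -0.19 to 0.017 for Dhx58, -0.30 to 0.096 for Ifi35, -0.033 to 0.22 for Xaf1, -0.12 to 0.24 for Zbp1, -0.21 to 0.046 for Herc6, -0.24 to 0.21 for Samd9l, -0.21 to 0.0076 for Trim25, -0.13 to 0.16 for Tor3a and -0.019 to 0.22 for Gbp3. RMA gives no detection call, so how far values near the limit for testing, such as those of Isg15, Oasl2 and Rsad2, stand above background is not known.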
